A study of Homo sapiens with 11 samples.

Results

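Of 2793 reproducible binding sites of the transcription factor MYRF in CFPAC1 cells, 1204 lay in acetylated chromatin and had no reproducible counterpart in HPAF2 cells. A reproducible site was a merged interval holding a peak of both replicate lists. The 1204 CFPAC1-only sites were chosen by 2 readouts: no overlap, by even 1 bp, with any of the 2883 reproducible HPAF2 MYRF intervals, and overlap with a peak in at least 1 of 4 H3K27ac lists from CFPAC1 clones. Among them, 935 had no peak in either HPAF2 MYRF list, 267 had a peak in 1 HPAF2 list, and 2 had peaks in both HPAF2 lists that did not overlap each other. The rule left out 305 CFPAC1-only sites without H3K27ac, 1222 shared sites with H3K27ac and 62 shared sites without it.

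CFPAC1 and HPAF2 are established human lines from pancreatic ductal adenocarcinoma, grown in IMDM and in RPMI. MYRF was mapped in the original lines with a home-made antibody. The knockout H3K27ac libraries came from a CFPAC1 clone carrying wild-type Cas9 and a guide against MYRF, and the control H3K27ac and FOS libraries came from a CFPAC1 clone isolated by dilution after infection with a lentiCRISPR-type plasmid. Each of these 5 groups had 2 libraries, and the labels do not say whether the replicates were separate cultures. The knockout and control groups are 1 clone each, so MYRF loss and clone cannot be told apart, and the peak lists hold no readout of MYRF itself in the clones. The samples include no H3K27ac or FOS library of HPAF2, so acetylation at a site is known for CFPAC1 only. The lists held 4743 and 4041 MYRF peaks in CFPAC1, 3702 and 4326 in HPAF2, 29087 and 36349 FOS peaks, and between 107586 and 116466 H3K27ac peaks. Read counts are not in the lists, which leaves the depth unknown, and a missing peak means that the peak caller's threshold was not reached, not that the factor was absent.

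MYRF starts out anchored in the membrane of the endoplasmic reticulum (ER), where it cuts itself so that its DNA-binding part can enter the nucleus. It was studied first in oligodendrocytes, in which it activates genes of myelin. FOS is a subunit of AP-1, a dimeric transcription factor that occupies many enhancers of epithelial and cancer cells. H3K27ac, the acetyl mark on lysine 27 of histone H3, is found at active enhancers and promoters.

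The sequences that could be shown are those of promoters, and only few of the sites lay in 1. RefSeq promoter windows, from 250 bases before to 50 from the gene start on (assembly GRCh38.p14), were available for 15842 protein-coding genes in 22198 windows, with none on the chromosome that carries 52 of the CFPAC1-only sites. Of the other 1152 sites, 56 (4.86%, Wilson 95% interval 3.76 to 6.26) had their summit in such a window, against 49 of 1166 shared sites (4.20%, 3.19 to 5.51). The 56 sites fell in 68 windows, because divergent gene pairs share a site and ALG3 and CWC27 have more than 1 start. The windows of PUS10, PI16, BLOC1S6 and LCN2 are shown because they are the 4 of the 12 with the strongest MYRF sites that hold a MYRF or AP-1 motif, and that of LMAN2 because LMAN2 belongs to the secretory-pathway genes described further on. Each is written 5′ to 3′ along its gene, from RefSeq, with the motif in capitals. They lie at chr2:61017163-61017462 (PUS10, minus strand), chr6:36948046-36948345 (PI16, plus strand), chr15:45587310-45587609 (BLOC1S6, plus strand), chr9:128149203-128149502 (LCN2, plus strand), chr5:177351619-177351918 (LMAN2, minus strand).
PUS10: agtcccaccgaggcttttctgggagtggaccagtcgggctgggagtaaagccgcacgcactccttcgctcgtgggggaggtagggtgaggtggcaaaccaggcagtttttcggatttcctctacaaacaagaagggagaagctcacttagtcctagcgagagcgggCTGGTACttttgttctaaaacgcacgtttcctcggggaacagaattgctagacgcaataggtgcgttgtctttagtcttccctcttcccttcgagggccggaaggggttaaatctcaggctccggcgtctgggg
PI16: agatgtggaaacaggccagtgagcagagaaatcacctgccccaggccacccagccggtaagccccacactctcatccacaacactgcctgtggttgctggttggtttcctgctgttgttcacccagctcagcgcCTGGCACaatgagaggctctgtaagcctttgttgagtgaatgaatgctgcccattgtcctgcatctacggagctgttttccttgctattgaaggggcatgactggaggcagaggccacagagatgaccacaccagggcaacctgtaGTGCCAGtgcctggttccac
BLOC1S6: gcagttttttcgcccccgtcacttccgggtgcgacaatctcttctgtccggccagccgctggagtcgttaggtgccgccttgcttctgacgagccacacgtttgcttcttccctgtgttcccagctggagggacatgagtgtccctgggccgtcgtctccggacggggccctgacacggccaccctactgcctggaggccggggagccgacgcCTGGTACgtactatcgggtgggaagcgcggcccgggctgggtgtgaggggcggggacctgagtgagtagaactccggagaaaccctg
LCN2: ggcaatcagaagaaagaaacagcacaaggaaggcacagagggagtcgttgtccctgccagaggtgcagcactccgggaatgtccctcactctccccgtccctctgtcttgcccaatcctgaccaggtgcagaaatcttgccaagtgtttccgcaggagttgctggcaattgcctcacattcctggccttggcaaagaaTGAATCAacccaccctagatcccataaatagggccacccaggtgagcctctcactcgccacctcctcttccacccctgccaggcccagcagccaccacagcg
LMAN2: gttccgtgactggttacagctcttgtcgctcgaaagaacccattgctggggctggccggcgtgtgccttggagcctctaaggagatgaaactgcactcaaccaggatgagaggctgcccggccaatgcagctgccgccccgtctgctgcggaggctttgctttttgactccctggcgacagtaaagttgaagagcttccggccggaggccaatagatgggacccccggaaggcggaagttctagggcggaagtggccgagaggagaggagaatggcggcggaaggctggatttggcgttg

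The motifs searched, on both strands, were CTGGCAC and CTGGTAC for MYRF, TGANTCA for AP-1, AGATAA for GATA factors and GGAATG for TEAD factors. In the PUS10 window the MYRF motif began 84 bases before the gene start, and its centre lay 59 bp from the MYRF summit. PI16 held 2 MYRF matches, of which the nearer lay 34 bp from the summit, BLOC1S6 held 1 at 44 bp, and LCN2 held an AP-1 match at 75 bp. None of the 68 windows held both a MYRF and an AP-1 match, but each match was in only 8 of them. The share of all windows with both was not counted, so nothing is read from this. A MYRF match was present in 8 of the 68 windows with a CFPAC1-only summit (11.8%), in 16 of 55 windows with a shared summit (29.1%) and in 7.04% of all windows. An AP-1 match was present in 8 (11.8%) of the windows with a CFPAC1-only summit, 6 (10.9%) of those with a shared summit and 6.15% of all windows. For GATA the shares were 8.82%, 7.27% and 7.91% in the same order, and for TEAD 14.7%, 7.27% and 12.2%. These are descriptions of letters in a window, with no test. Windows can overlap, so the same match can be counted in several, as for PIH1D2 and NKAPD1 (MYRF) and SNRPD3 and GUCD1 (AP-1).

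MYRF peaks are described by the authors' own fold enrichment at the summit, a ratio to local background, which is comparable within a list only. PUS10, a pseudouridine synthase gene, had folds of 9.09 and 9.66 in CFPAC1 replicates 1 and 2 and a weak peak of 2.86 in HPAF2 replicate 2. LMAN2, which encodes a lectin of the early secretory pathway, had 6.82 and 8.65 in CFPAC1 and 4.19 in HPAF2 replicate 2. PI16, encoding a secreted peptidase inhibitor, had 6.18 and 6.36 in CFPAC1 and no HPAF2 peak. BLOC1S6, a subunit of a lysosome-related organelle complex, had 6.69 and 6.27 in CFPAC1 and no HPAF2 peak. LCN2, encoding the siderophore-binding protein lipocalin-2, had 5.69 and 10.0 in CFPAC1, no HPAF2 peak and a FOS peak of 4.58 in replicate 2 only. All 5 promoters carried H3K27ac peaks in both clones. At LCN2 the H3K27ac folds were 32.4 and 23.7 in the knockout clone and 20.5 and 30.7 in the control clone, so the clones overlapped.

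The CFPAC1-only sites covered most of the range of MYRF strength but were few among the strongest sites. Their median fold was 5.69 in replicate 1 and 5.50 in replicate 2, against 7.58 and 7.20 at shared sites, and their median width was 409 bp against 503.5 bp. Their folds ran from 2.41 to 40.4 in replicate 1 and from 2.28 to 38.3 in replicate 2. When all 2793 CFPAC1 sites were cut into quintiles of mean fold, from lowest to highest, CFPAC1-only acetylated sites made up 51.3%, 50.0%, 49.6%, 44.8% and 19.9% of each. The top quintile, with a mean fold of 9.38 or more, still held 111 of them, and 88 of these had no peak in either HPAF2 list. Because MYRF peaks chose the sites, these values carry no test. The sites with no HPAF2 peak were as strong as those with a peak in 1 list by their medians, at 5.68 and 5.48 against 5.69 and 5.56.

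**Figure D1:**
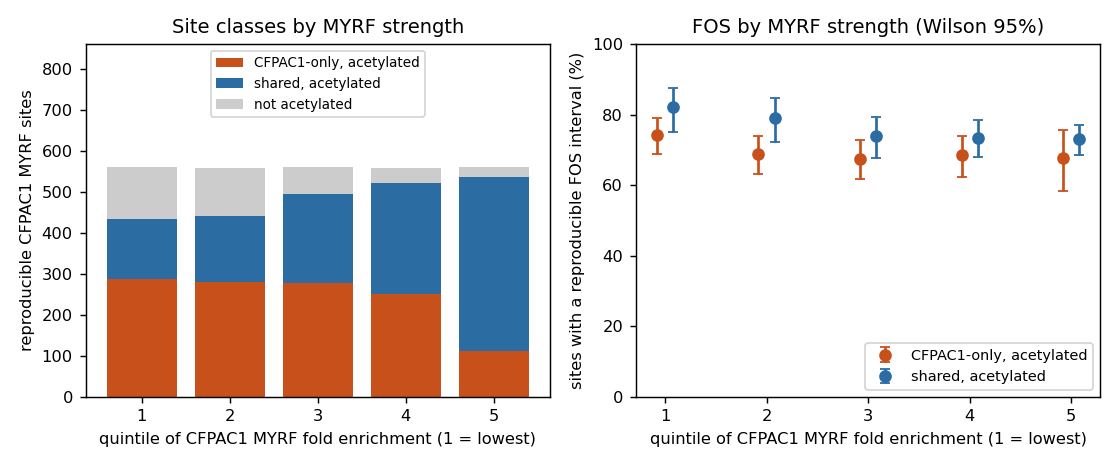
Left, number of reproducible CFPAC1 MYRF sites by class in quintiles of mean MYRF fold enrichment; CFPAC1-only acetylated sites fill 51.3% of the lowest and 19.9% of the highest quintile. Right, percent of acetylated sites with a reproducible FOS interval in the same quintiles, points with Wilson 95% intervals, CFPAC1-only left of shared; the CFPAC1-only point is the lower of the pair in all 5.

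The strongest site without an HPAF2 peak, chr12:93048458-93049162, had MYRF folds of 40.4 and 38.3, placing it above 99% of either list. No protein-coding gene end lay within 50 kb of it. Its H3K27ac folds were 6.65 and 10.8 in the knockout clone, against 16.7 and 17.1 in the control clone, so that both knockout values lay below both control values. The second, in the gene of the kinase-like protein STK40 at chr1:36350570-36351592, had MYRF folds of 33.8 and 31.6 and FOS folds of 18.9 and 24.3. Its H3K27ac folds of 26.3 and 22.1 in the knockout clone, against 28.6 and 31.4 in the control clone, also did not overlap. Folds in different H3K27ac lists are scaled to different backgrounds, so these gaps are given as values and not as a change. The nearest HPAF2 peak of any kind lay 882254 bp from the STK40 site and 27612 bp from the chromosome 12 site.

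Of the 20 strongest sites with no HPAF2 peak, 10 had a protein-coding gene end within 50 kb. A site inside OGFOD3, nearest to the end of HEXD, which encodes a hexosaminidase, had MYRF folds of 31.4 and 24.3 with no FOS peak. It carried only weak acetylation, with a fold of 3.65 in 1 knockout library and 5.02 in 1 control library. CHMP6, a subunit of the ESCRT-III membrane-remodelling complex, had 23.5 and 18.7, and TESC, a calcium-binding protein, had 16.6 and 18.7. The site near ZFAND5, a zinc finger protein linked to protein degradation, had 17.9 and 17.6, and the site near SLX9 had 17.3 and 17.7. Sites at CD99L2 and PRRG1 on the X chromosome had folds of 16.1 and 20.5, and of 15.4 and 17.4. SEPTIN9, a cytoskeletal septin, had 14.6 and 14.8. The site near PAFAH1B2 had 18.1 and 14.7, but its only H3K27ac peak, of fold 3.77, was in control replicate 2, so it entered the acetylated class by 1 list. Sites with no gene end within 50 kb included introns of CTNNA2, which encodes a catenin, at chr2:80054171-80054756 (20.8 and 24.2), and of EFNA5, an ephrin ligand, at chr5:107476742-107477318 (21.4 and 18.6).

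The 8 strongest sites with a peak in 1 HPAF2 list had HPAF2 folds of 3.84 to 8.14. At SLC14A1, a urea transporter gene, MYRF folds were 22.2 and 17.9 in CFPAC1 and 8.14 in HPAF2 replicate 2. THSD4, an extracellular matrix protein, had 15.8 and 17.2 in CFPAC1 and 4.85 in HPAF2 replicate 1. PORCN, the enzyme that acylates Wnt ligands, had 15.1 and 15.1 in CFPAC1 and 5.85 in HPAF2 replicate 2. MAP3K9, a mixed-lineage kinase, had 14.1 and 16.3 in CFPAC1 and 4.82 in HPAF2 replicate 2. MREG, a vesicle-transport protein, INPP5A, an inositol phosphatase, and CALML3, a calmodulin-like protein of epithelia, each had their HPAF2 peak in replicate 1, with HPAF2 folds of 3.84, 5.95 and 5.29. Over all 267 sites the HPAF2 peak was in replicate 1 at 86 and in replicate 2 at 181, at a median of the 31.2 percentile of its list (range 0.0810 to 81.6).

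**Figure D2:**
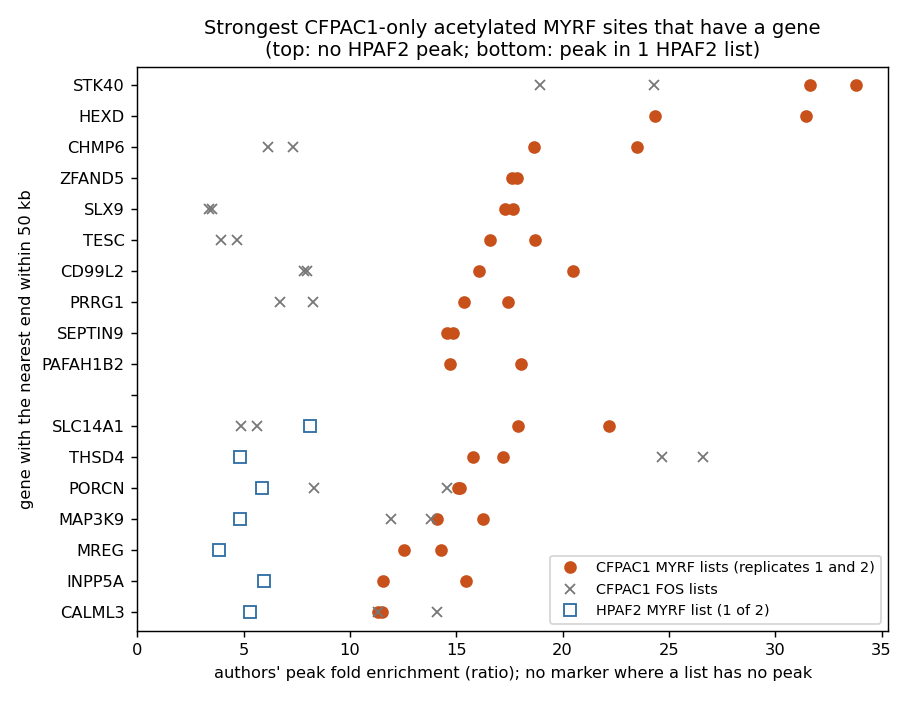
Authors' peak fold enrichment (horizontal axis, ratio) at the strongest CFPAC1-only sites with a gene end within 50 kb: filled circles are the CFPAC1 MYRF replicates, crosses the CFPAC1 FOS replicates, open squares the HPAF2 MYRF peak, with no marker where a list has no peak. STK40 leads with 33.8 and 31.6; the HPAF2 peaks of the lower block lie between 3.84 and 8.14.

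At the edge between CFPAC1-only and shared sites, the class turned on the presence of a peak in the second HPAF2 list. Just inside it, 3 sites had an HPAF2 peak at the 81.6 percentile of replicate 2 (fold 8.48) and none in replicate 1. They were a site in an intron of VAC14 with CFPAC1 folds of 9.64 and 5.35, a second site near SLC14A1 with 10.3 and 10.5, and a site near CACNG6 with 7.02 and 8.88. Just outside it, the shared site near NRP1 had CFPAC1 folds of 8.90 and 10.3 and HPAF2 folds of 2.59 and 5.17, and that near MYEOV had 3.51 and 7.72 in CFPAC1, against 2.90 and 2.70 in HPAF2. The sites with peaks in both HPAF2 lists that did not meet lay near HPCAL1, with folds of 7.39 and 10.0 in CFPAC1, against 3.78 and 5.10 in HPAF2, and near KRT19, with 4.58 and 6.22 in CFPAC1, against 5.72 and 4.42 in HPAF2.

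Most CFPAC1-only sites were the only such site in their H3K27ac region. They fell in 1160 H3K27ac regions, of which 1119 held 1 such site, 38 held 2 and 3 held 3. Only 38 of the 1204 sites (3.16%) shared an H3K27ac region with a shared MYRF site. The median gap to the nearest shared site was 363641 bp, with 243 sites (20.2%) within 50 kb of a shared site and 91 (7.56%) within 10 kb. The same counts were not made for shared sites or for random positions, so neither isolation nor clustering is read from them. For the 935 sites with no HPAF2 peak, the median gap to any HPAF2 peak was 90715 bp, 364 (38.9%) had such a peak within 50 kb, and 24 (2.57%) within 1 kb. On autosomes and X, CFPAC1-only sites made up between 35.1% of the acetylated sites (X, Wilson 95% interval 21.8 to 51.2) and 62.1% (chromosome 13, 44.0 to 77.3).

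FOS did not enter the rule and was found at most CFPAC1-only sites. A reproducible FOS interval overlapped 838 of the 1204 (69.6%, Wilson 95% interval 66.9 to 72.1), against 918 of 1222 shared sites (75.1%, 72.6 to 77.5). The odds of a FOS interval were lower at CFPAC1-only sites by this count, with an odds ratio of 0.758 (95% interval 0.634 to 0.906, two-sided Fisher's exact p = 0.00271). The direction was the same in both FOS libraries, at 70.9% against 76.4% in replicate 1 and 76.0% against 79.8% in replicate 2. Within quintiles of MYRF fold, the pooled odds ratio was 0.702 (Mantel-Haenszel, exact conditional p = 0.00036). Sites of 1 genome are not replicate cultures, so these p-values cover counting over sites in these libraries.

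The size and the sign of that difference depended on how sites were called. With a -log10 q of at least 10 required of MYRF peaks alone, which also turns sites with a weak HPAF2 peak into CFPAC1-only sites, the odds ratio was 1.06 (Fisher's exact p = 0.678), and with the same required of MYRF and FOS peaks it was 1.12 (p = 0.362). Without HPAF2 replicate 1 it was 0.842 (exact p = 0.0659). When a FOS summit had to lie within 200 bp of the MYRF summit it was 0.877 (exact p = 0.117). Within quintiles of MYRF fold, that 200 bp setting gave 0.836 (0.704 to 0.994, Mantel-Haenszel, exact conditional p = 0.0437).

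The contrast with CFPAC1-only sites that lacked H3K27ac was far wider. Only 30 of those 305 sites (9.84%) held a FOS interval, and the odds ratio of acetylated over not acetylated sites was 21.0 (14.1 to 31.2; p = 8.64e-85 by Fisher's exact test). Only 2 of the 305 lay within 1 kb of a gene end (0.656%), against 146 acetylated ones (12.1%; odds ratio 20.9, 5.15 to 84.9, exact p = 6.41e-13). Of the acetylated sites 48.3% had their summit inside a protein-coding gene, against 90.2% of those without H3K27ac (odds ratio 0.102, 0.0686 to 0.151, exact p = 2.73e-45). Acetylation was part of the rule but FOS and gene position were not, and these 3 tests were added after the values were seen. They did not adjust for MYRF strength. The sites without H3K27ac were weaker, with median MYRF folds of 4.77 and 4.87 against 5.69 and 5.50. Their replicate summits lay a median of 113 bp apart, against 45 bp. More of them had a gene end within 50 kb, at 86.2% against 64.1%.

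A FOS interval counted only if it overlapped the MYRF interval, so their summits were bound to lie close. Distances were taken to the nearest FOS replicate 1 summit in such an interval. The median distance between the MYRF and FOS summits was 82 bp at CFPAC1-only sites and 82 bp at shared sites, and it was within 50 bp at 286 (34.1%) of 838 CFPAC1-only and 319 (34.7%) of 918 shared sites. The highest FOS peak in these intervals had a median within-list percentile of 76.2 and 80.1 in replicates 1 and 2 at CFPAC1-only sites. At shared sites it was 79.7 and 84.3. Taking the highest peak, and only intervals found in both lists, raises these percentiles. No value over all reproducible FOS intervals was computed for comparison. THSD4 had the highest FOS folds among the sites named so far, at 24.7 and 26.6. The strongest CFPAC1-only sites with no FOS peak in either list lay near HEXD, ZFAND5, SEPTIN9, PAFAH1B2, FGD5 and CTTNBP2, which encodes a cortactin-binding protein. CTTNBP2 had MYRF folds of 18.9 and 13.6, and FGD5 of 13.6 and 13.5.

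FOS was less frequent close to gene ends. Among CFPAC1-only sites within 1 kb of a gene end, 48 of 146 (32.9%) had a FOS interval, against 790 of 1058 farther away (74.7%; odds ratio 0.166, 0.115 to 0.241, p = 1.14e-22 by Fisher's exact test). The CFPAC1-only and shared shares were 74.7% and 80.0% beyond 1 kb (odds ratio 0.735, 0.600 to 0.901, p = 0.00324 by Fisher's exact test). Within 1 kb they were 32.9% and 35.6% (odds ratio 0.888, 0.542 to 1.45, exact p = 0.706). These comparisons were added after the values were seen.

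**Figure D3:**
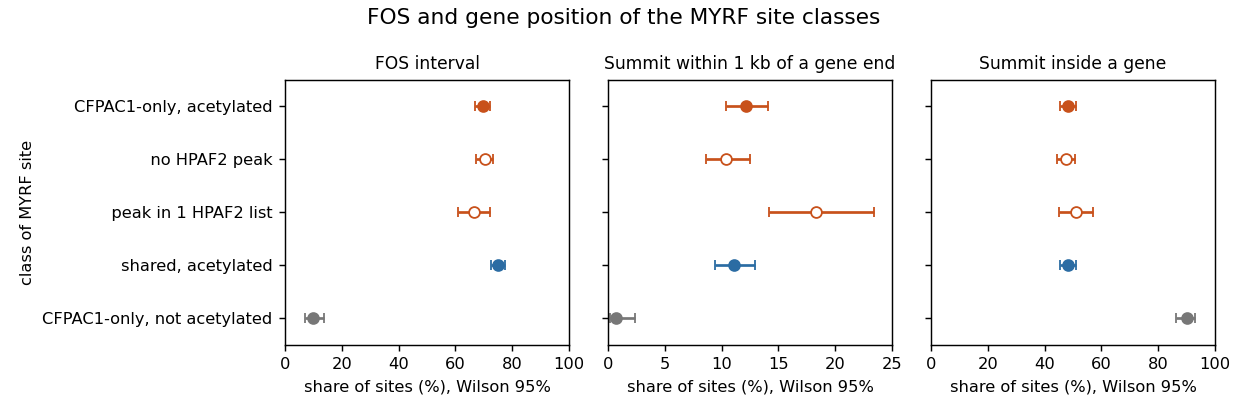
Percent of sites (points, with Wilson 95% intervals) that hold a reproducible FOS interval, have their summit within 1 kb of a protein-coding gene end, or have it inside such a gene, for CFPAC1-only acetylated sites, their subclasses, shared acetylated sites and CFPAC1-only sites without H3K27ac. FOS shares are 69.6%, 75.1% and 9.84% in the 3 main classes, and the subclass with a peak in 1 HPAF2 list has the highest share near gene ends, at 18.4%.

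Close to gene ends, the share of CFPAC1-only sites was not distinguished from that of shared sites in the main comparison. The summit lay within 1 kb of a gene end at 146 sites (12.1%, 10.4 to 14.1) and at 135 shared sites (11.0%), for which Fisher's exact test gave p = 0.410 and an odds ratio of 1.11 (0.866 to 1.43). Without CFPAC1 replicate 1 it was 1.34 (exact p = 0.00758) and without CFPAC1 replicate 2 it was 1.46 (p = 0.000289), both past the threshold, whereas the sites with no HPAF2 peak alone gave 0.932 (p = 0.624). The summit was inside a protein-coding gene at 48.3% of CFPAC1-only and 48.2% of shared sites. At longer range CFPAC1-only sites lay farther from gene ends. A gene end lay within 50 kb of 772 of them (64.1%), against 850 shared sites (69.6%), and Fisher's exact test, added after the values were seen, gave p = 0.00504 with an odds ratio of 0.782 (0.660 to 0.927). To the nearest gene start in the promoter table, the median distance was 47766.5 bp, against 35511.5 bp at shared sites. Between 1 and 10 kb of a start lay 9.72% (Wilson 95% interval 8.14 to 11.6), against 15.1% (13.2 to 17.3), and beyond 100 kb lay 32.0% (29.4 to 34.8), against 26.6% (24.1 to 29.2), given as values without a test. The 2 kinds of CFPAC1-only site differed from each other. Of those with a peak in 1 HPAF2 list, 49 of 267 (18.4%) lay within 1 kb of a gene end, against 97 of 935 with no HPAF2 peak (10.4%), and Fisher's exact test, added after the values were seen, gave p = 0.000906 with an odds ratio of 1.94 (1.34 to 2.82). FOS was present at 66.7% of the sites with a peak in 1 list and 70.4% of those with none (odds ratio 0.842, 0.630 to 1.13, exact p = 0.258).

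Most CFPAC1-only sites had an H3K27ac peak in both clones. A peak of all 4 H3K27ac lists overlapped 1057 of the 1204 sites (87.8%), against 1079 of 1222 shared sites (88.3%). By library, 91.8% and 94.3% of CFPAC1-only sites had a peak in the knockout clone, and 96.8% and 94.9% in the control clone. Merging all H3K27ac peaks gave 134465 regions. Lost regions had a peak in both libraries of the control clone and in none of the knockout clone, and gained regions the reverse. Of CFPAC1-only sites 8 (0.664%) lay in a lost region, against 13 shared sites (1.06%), while 3.51% of all regions were lost. The odds ratio was 0.636 (0.269 to 1.51). Gained regions held 2 CFPAC1-only sites (0.166%) and no shared site, while 1.7% of all regions were gained (odds ratio 5.08, 0.244 to 106). Because both classes were required to have a peak in these same lists, the counts are a description, with no p and nothing read from their place below the shares over all regions. They also rested on all 4 libraries. Leaving out 1 H3K27ac library loosens the call. Between 15 and 32 CFPAC1-only sites were then lost (1.25% to 2.66%), while 6.48% to 13.9% of all regions were. The most were lost without knockout replicate 2 (2.66%, against 7.97% of all regions). Between 2 and 7 sites were gained (0.166% to 0.581%), while 3.25% to 9.89% of all regions were. With peaks over the site itself, 17 were lost (1.41%) and 2 gained (0.166%), a call for which no share over all regions was computed.

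Among the lost regions, the site chr4:16442201-16443092, with no gene end within 50 kb, was the third strongest MYRF site of those without an HPAF2 peak. It had MYRF folds of 30.1 and 31.5, FOS folds of 12.2 and 12.9, no H3K27ac peak in either knockout library and H3K27ac folds of 8.74 and 5.41 in the control libraries. The next, in MAP3K20, a stress-activated kinase gene, had MYRF folds of 7.28 and 9.05, no FOS peak, no knockout H3K27ac peak and control folds of 6.88 and 3.34. The lost site near CTAG1A, a cancer-testis antigen gene with a near-identical copy, is uncertain because reads may be split between the copies. The lost site near ARRB2, encoding a beta-arrestin, lay 254 bp from the gene end, with an H3K27ac peak over the site itself in control replicate 1 only (3.40). The gained sites lay near GLI2, a transcription factor of the Hedgehog pathway, and EN1, a homeobox factor. Both are on chromosome 2, at chr2:120733084-120733489 and chr2:118836014-118836337, and whether they changed independently was not tested. The GLI2 site had an HPAF2 peak of 4.92 in replicate 2, and the EN1 site had none. GLI2 had H3K27ac folds of 5.66 and 3.64 in the knockout clone and no peak in the control clone, and EN1 had 5.80 and 3.65 in the knockout clone and no peak in the control clone.

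Within 1000 bp to each side of the MYRF summit, H3K27ac peaks covered on average 1574 and 1649 of 2000 bp in the knockout libraries and 1712 and 1665 bp in the control libraries. Both knockout values lay below both control values, with a difference of the means, knockout minus control, of -76.8 bp (-4.55%), while the 2 knockout libraries differed from each other by 75.4 bp. The exact two-sided permutation p was 0.333, the smallest that 2 libraries against 2 allow, so the test could not pass 0.05. Peaks in these same lists also chose the sites, so nothing is read from this p or from that of the narrower window. Within 500 bp to each side the clones overlapped, at 799.9 and 835.9 bp in the knockout and 865.4 and 834.8 bp in the control clone (difference -32.2 bp, exact permutation p = 0.667). At shared sites the values were 1584 and 1605 bp in the knockout and 1690 and 1661 bp in the control clone (difference -80.5 bp, -4.81%). The lists as a whole moved the same way, covering 87.9 and 92.9 Mb in the knockout and 100.5 and 95.2 Mb in the control clone. At 18275 acetylated FOS intervals without a MYRF peak in any list, coverage was 1152 and 1221 bp in the knockout and 1324 and 1185 bp in the control clone. There the clones overlapped, but the difference of the means, -68.3 bp, had the same sign, so a lower coverage was not particular to MYRF sites. The part of these general differences in the difference at CFPAC1-only sites was not tested.

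**Figure D4:**
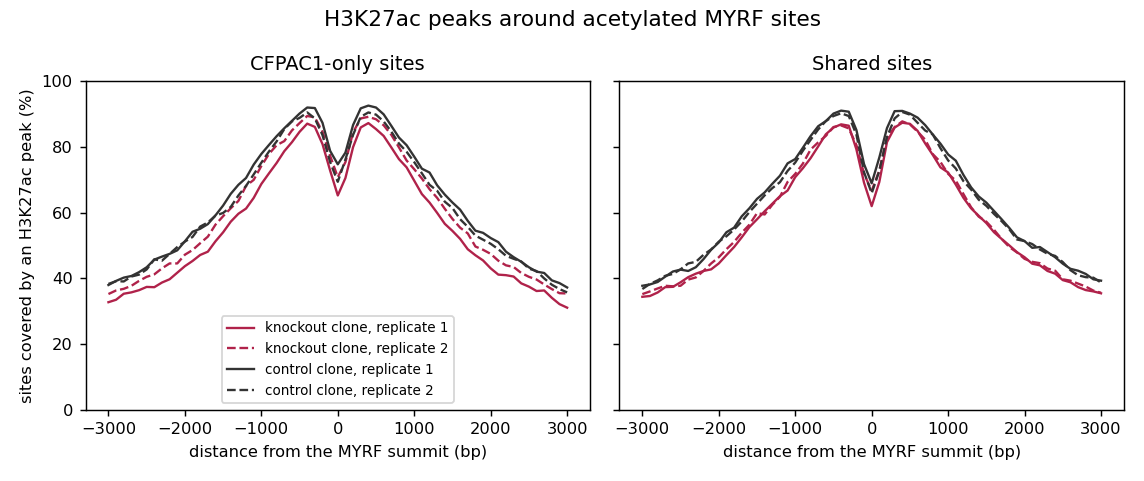
Percent of CFPAC1-only (left) and shared (right) acetylated sites covered by an H3K27ac peak at each distance from the MYRF summit, 1 line per library of the knockout (red) and control (black) clones. Coverage dips at the summit in all 4 libraries, to between 65.2% and 74.7% at CFPAC1-only sites, and reaches between 87.2% and 92.5% at 400 bp.

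H3K27ac peaks covered the MYRF summit at fewer sites than positions 400 bp to each side, in every library. At CFPAC1-only sites the summit base was covered at 65.2% and 70.8% of sites in the knockout clone and 74.7% and 69.4% in the control clone, against 87.2% and 89.1%, and 92.5% and 90.4%, at 400 bp downstream in genome coordinates. At shared sites the summit was covered at 61.9% and 66.6% of sites in the knockout clone and 68.9% and 65.9% in the control clone.

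Genes were assigned to a site by the nearest protein-coding gene end within 50 kb. This placed 772 CFPAC1-only sites at 662 genes (3.30% of 20033) and left 432 without a gene. Shared sites lay at 720 genes (3.59%). Both kinds occurred at 102 genes, which is 15.4% of the first set and 14.2% of the second. Of the 662 genes, 573 had 1 CFPAC1-only site, 71 had 2, 15 had 3 and 3 had 4.

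The genes with 4 sites were ANXA2, KRT19 and PADI1. At ANXA2, encoding a calcium-dependent membrane-binding protein, MYRF folds in replicates 1 and 2 were 10.8 and 7.01, 4.60 and 6.31, 6.80 and 4.57, and 4.16 and 3.95, and the first 3 of these sites had a peak in 1 HPAF2 list. PADI1, which encodes an enzyme that converts arginine to citrulline in epithelia, had a site 437 bp from its end with folds of 10.8 and 6.80 and 3 weaker ones. At 1 of these, CFPAC1 folds were 6.49 and 5.14, and HPAF2 replicate 2 had a peak of 7.07. KRT19, the keratin of pancreatic ducts, had sites of 3.56 to 6.53 in replicate 1 and 3.79 to 6.22 in replicate 2, and also had a shared site. ANXA2, PADI1, ALCAM, BARX2 and CALML3 had no shared site. ALCAM, a cell adhesion molecule, had 3 sites, none with an HPAF2 peak and all with FOS in both replicates. BARX2, a homeobox factor, likewise had 3 sites with FOS in both replicates and no HPAF2 peak.

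Gene lists fitting these cells were read the same way, as counts without a test beside the 3.30% and 3.59% over all genes. Both site classes had to carry H3K27ac in CFPAC1 clones, and shares over genes with acetylation nearby were not counted. A list above the shares over all genes is therefore not read as enriched for MYRF sites. Of 34 epithelial and foregut transcription factors, 5 had a CFPAC1-only site and 7 a shared site. They included GATA6, a factor of foregut endoderm, GRHL2 and ELF3, which act in epithelial identity, and KLF6, a zinc finger factor. The GATA6 site, inside the gene at chr18:22190498-22190917, had MYRF folds of 7.03 and 4.72, no HPAF2 peak and no FOS peak. Its H3K27ac folds were 4.50 and 3.96 in the knockout clone and 8.26 and 4.62 in the control clone. ELF3 had a weak site 240 bp from its end, with 3.61 and 5.15 in CFPAC1 and 3.36 in HPAF2 replicate 2. The classical pancreatic cancer program had no CFPAC1-only site at its 22 genes, too few for 0 to stand apart from the 3.30% over all genes, and a shared site at 5. The basal-like and squamous program had CFPAC1-only sites at 5 of 27 genes and shared sites at 5. The difference between these lists was not tested. The genes with a CFPAC1-only site were the keratin genes KRT16 and KRT7, the surface antigen gene LY6D, the glucose transporter gene SLC2A1 and TNS4, a focal adhesion protein. KRT16, which has near-identical copies in the genome so that its peak is uncertain, had MYRF folds of 9.09 and 9.27 at 238 bp from its end with no HPAF2 peak. LY6D had 7.20 and 6.57, KRT7 had 5.02 and 4.63, and neither had an HPAF2 peak.

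AP-1 subunits and partners had CFPAC1-only sites at 4 of 24 genes and shared sites at 3. The 4 were FOSL1 and JUN, which encode AP-1 subunits, and MAF and MAFF, which encode related leucine-zipper factors. FOSL1 had MYRF folds of 5.65 and 4.58 with FOS folds of 5.97 and 8.74, and JUN had 4.52 and 6.42 with no FOS peak, neither with an HPAF2 peak. Of 24 genes of EGFR, MET and their ligands and feedback inhibitors, 5 had a CFPAC1-only site: the ligand EREG, the receptor MET and the inhibitors DUSP4, DUSP5 and SPRY1, with shared sites at 5. EREG had 4.54 and 4.37 and DUSP5 had 5.62 and 7.48 with no HPAF2 peak, whereas DUSP4 had 7.84 and 9.29 with a peak of 4.63 in HPAF2 replicate 2.

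Adhesion genes had the most members, at 7 of 33 with a CFPAC1-only site and 10 with a shared site. They comprised the integrin genes ITGA3, ITGA6, ITGB1, ITGB4 and ITGB6, the laminin chain LAMB1 and the tight-junction scaffold TJP1. The site inside ITGA6 had MYRF folds of 9.37 and 9.11 and that inside ITGA3 had 8.53 and 7.97, neither with an HPAF2 peak. ITGB6 had 5.35 and 5.81 in CFPAC1 and 3.25 in HPAF2 replicate 1, and ITGB1 had 4.27 and 5.97 in CFPAC1 and 6.03 in HPAF2 replicate 2.

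In the 5 lists of the ER and secretory pathway together, 5 of 169 genes (2.96%) had a CFPAC1-only site, close to the 3.30% over all genes, and 10 (5.92%) a shared site. ER chaperones and folding enzymes had none at 34 genes, the unfolded protein response none at 23 and ER-associated degradation none at 25, with shared sites at 1, 2 and 1 gene. Translocation and N-glycosylation had 3 of 46, with 4 shared, and ER-to-Golgi transport had 2 of 41, with 2 shared. ALG3, a mannosyltransferase of N-glycan assembly, had 3.97 and 4.90 in CFPAC1 and 4.07 in HPAF2 replicate 1, at 417 bp from its end. MGAT5, an N-glycan branching enzyme, had 4.30 and 3.85 in CFPAC1 and 4.75 in HPAF2 replicate 2, and DAD1, a subunit of oligosaccharyltransferase, had 4.30 and 3.48 with no HPAF2 peak. SEC23B, a COPII coat subunit, had 3.68 and 3.26 in CFPAC1 and 4.96 in HPAF2 replicate 2, at 135 bp from its end. LMAN2 completes these, with the promoter shown above. The DAD1 site lay 344 bp from an HPAF2 peak and in the same H3K27ac region as a shared site, and the other 4 genes had a peak in 1 HPAF2 list.

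The other lists had up to 2 genes each. Mucins and mucin-type O-glycosylation had GALNT2 of 34, an enzyme that starts O-glycans, with 6.39 and 6.80 in CFPAC1 and 4.68 in HPAF2 replicate 1. Ductal ion transport had the bicarbonate transporter SLC4A4 (7.53 and 6.53) and the sodium pump subunit ATP1B1 (4.02 and 5.77) of 25, neither with an HPAF2 peak. Mesenchymal genes had TGFB2 and MMP2 of 29, pancreatic cancer drivers had SMAD3 of 23, with 3.68 and 4.64, and myelin genes had RFFL of 24, a ubiquitin ligase gene, with 6.27 and 5.91. Acinar and endocrine genes had none of 26. Shared sites were found at 3, 2, 3, 4, 5 and 1 genes of these 6 lists in the order given.

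**Figure D5:**
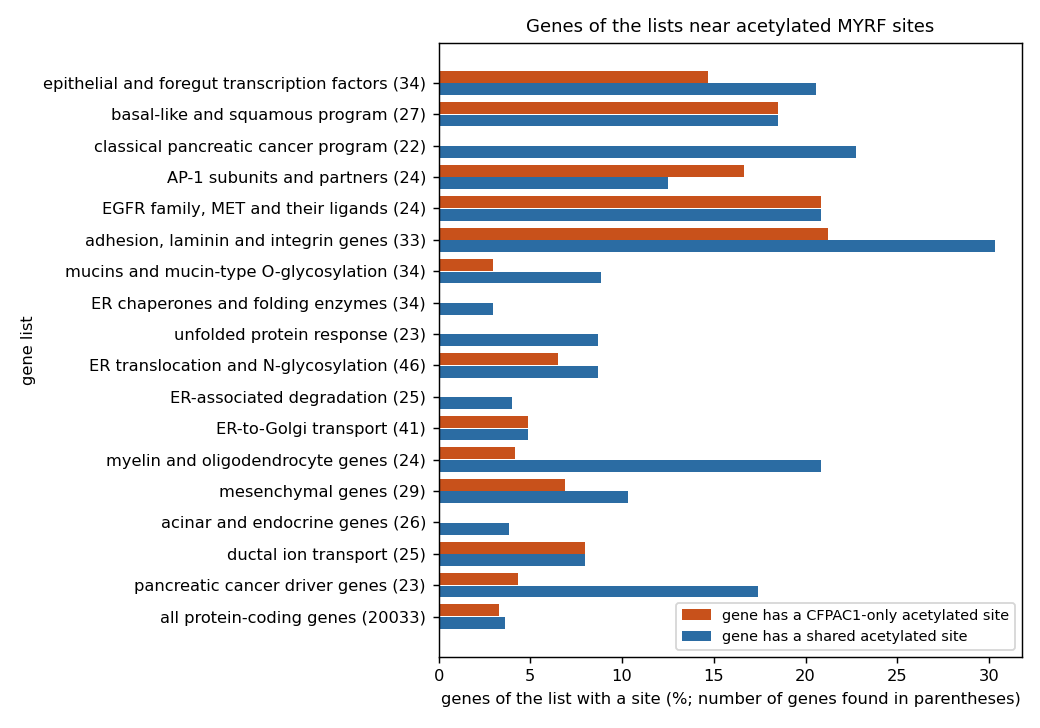
Percent of the genes of each list (number of genes in parentheses) whose nearest gene end within 50 kb belongs to a CFPAC1-only (upper bar, orange) or a shared (lower bar, blue) acetylated MYRF site, with all 20033 protein-coding genes at the bottom (3.30% and 3.59%). The adhesion list has the longest bars of both colours, at 21.2% and 30.3%.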

How the data were processed

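ChIP-seq peak lists of 10 libraries, 2 per group, were used; the HPAF2 input sample was not analysed here. Per the submitters' processing notes, MACS2 2.1.0.20150731 and SAMtools were used along with Bowtie2 2.2.6 and Trimmomatic 0.38, on GRCh38 (hg38). The authors deposited, for every peak, a fold enrichment (a ratio), -log10 p, -log10 q and a score. The control behind the CFPAC1 folds is not given in the sources used here, and fold was used only within a list.

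Peaks of both replicates that overlapped by at least 1 bp were merged, and the number of CFPAC1-only acetylated sites was checked with bedtools 2.31.1. A site took the H3K27ac region with the longest overlap. Classes were compared by odds ratios with two-sided Fisher's exact tests and 95% log-scale intervals, or by Mantel-Haenszel ratios with exact conditional tests, at a threshold of 0.05, without adjustment over the comparisons. For lost and gained regions no p is given, because H3K27ac chose the sites, and 0.5 was added to each cell of the ratio, a choice made after seeing an empty cell. Shares carry Wilson 95% intervals, which cover counting error only. Covered length was compared between libraries by an exact permutation test. That test could not reach 0.05 with 2 libraries against 2, and H3K27ac chose its sites too, so nothing is read from its p. The statistics were tested on simulated tables with known odds ratios. Scripts ran in Python 3.11.15 (scipy 1.17.1, pandas 2.3.3, numpy 2.4.6; plots with matplotlib 3.10.9).

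The RefSeq gene table (GRCh38.p14) gave 20033 protein-coding genes, and 491 of 495 list genes were found by symbol. Named were the 20 strongest sites without and the 8 strongest with an HPAF2 peak, ranked by the lower of the 2 within-list percentiles, up to 4 sites per list, up to 6 each in lost and gained regions and without FOS, up to 6 genes with the most sites, and up to 12 promoters; those left out of the text are given as counts, and some items are withheld and not reported here. Members and lists were chosen with earlier results of these data known. Alternatives covered the overlap rule, the q threshold, distances, stratification and leaving out each replicate.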

Additional observations from a re-analysis of the deposited data

How the results depend on the processing

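Every value below is an odds ratio of CFPAC1-only over shared acetylated sites, unless a bp or a number of sites is given; the cause of each shift was not tested. The number of CFPAC1-only sites, 1204, was 529 with a -log10 q of at least 10 and ran from 1023 to 2022 when each MYRF replicate was left out, 2022 without CFPAC1 replicate 2. For FOS (0.758), the ratio was 1.12 with that threshold in the MYRF and FOS lists, 1.06 with it in the MYRF lists alone, 0.877 with summits within 200 bp and 0.652 to 0.842 when each replicate was left out, 0.842 without HPAF2 replicate 1. For lost H3K27ac (0.636), it was 1.15 with peaks over the site itself and 0.419 to 1.12 with each replicate left out: 0.419 without CFPAC1 replicate 2 and 1.12 without knockout replicate 2. For gained H3K27ac (5.08), leaving out each replicate gave 0.723 to 5.87, 0.723 without control replicate 1. For gene ends (1.11), it was 0.906 with the stricter threshold, 0.932 for sites with no HPAF2 peak, 0.922 at 5 kb, 0.936 by Mantel-Haenszel over quintiles and 0.928 to 1.46 with each replicate left out. The threshold on the MYRF or the FOS lists alone, the 200 bp setting within quintiles, peaks over the site itself and all counts of sites by setting were chosen after seeing the data. With the replicate block, that is paired by replicate number, the coverage difference was -76.8 bp (exact p = 0.5, the smallest possible), it was -32.2 bp within 500 bp, and it ran from -114.5 to -39.1 bp over single H3K27ac libraries left out. Whether the numbers pair the libraries is not given in the labels. Peak lists without read counts limit every count to presence over the caller's threshold.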
